A study of Mus musculus with 6 samples.

Results

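Klf5 and 9 of its paralogs, the genes Klf2, Klf3, Klf4, Klf6, Klf7, Klf9, Klf10, Klf13 and Klf15, were followed in the bladders of mouse embryos with a deletion of Klf5 and of controls. The members were taken by gene symbol from the array annotation, all 10 were found among 19938 genes with a single symbol, and each had 1 feature on the array, so no choice between features arose. The question was whether a related factor was raised where Klf5 had been deleted, as would be seen if paralogs made up for its loss at the level of RNA.

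Bladders were collected at E14.5, in mid-gestation, and each of the 6 samples was a pool of 2 whole bladders, with 3 pools per genotype. The Klf5-deleted embryos had the genotype Klf5 Δ/Δ, a deletion of the gene on both alleles. The controls were Klf5+/+ShhGfpCre+, with intact Klf5 and an allele that makes Cre recombinase where Shh is active, which in the bladder is the epithelium (urothelium). The labels name the Cre allele for the controls alone; the deletion was taken to have been made by the same allele, so muscle, connective tissue and vessels were taken to keep Klf5. The source is labelled urothelium, whereas the protocol speaks of whole bladders. In such bulk samples fewer cells of a type and less RNA per cell cannot be told apart. Each p-value rests on the spread among these pools. The labels leave unsaid whether the pools came from different litters, so the spread among litters may not be covered.

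Kruppel-like factors bind GC-rich and CACCC sequences of promoters through zinc fingers at the C-terminal end of the protein, which are much alike in all members, while the rest of the protein differs and sets what a member does. Klf2, Klf4, Klf5, Klf6 and Klf7 mostly act as activators, although Klf4 can also repress. Klf3 recruits the corepressor CtBP, and Klf9, Klf10 and Klf13 recruit the corepressor Sin3. Klf5 and Klf4 are known above all from epithelia, where Klf5 is typical of dividing cells and Klf4 of differentiating ones, and members can bind the same sites.

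The promoters of the paralogs carry the sequences that factors of this family read, and 5 of them are shown as the letters in which such sites would lie: those of the 3 paralogs with the smallest p-values in the comparison further on and of the 2 whose values differed least. Each is the 250 bases before the annotated start, from RefSeq on GRCm38.p6, written 5′ to 3′ on the gene's own strand. Capitals mark CACCC or GGGCGG on either strand; neighbouring matches can overlap and then form a longer run of capitals. The windows lie at chr4:55532476-55532725 on the minus strand for Klf4, chr19:23140976-23141225 on the plus strand for Klf9, chr7:63938916-63939165 on the minus strand for Klf13, chr13:5861239-5861488 on the plus strand for Klf6 and chr6:90462326-90462575 on the plus strand for Klf15.
Klf4: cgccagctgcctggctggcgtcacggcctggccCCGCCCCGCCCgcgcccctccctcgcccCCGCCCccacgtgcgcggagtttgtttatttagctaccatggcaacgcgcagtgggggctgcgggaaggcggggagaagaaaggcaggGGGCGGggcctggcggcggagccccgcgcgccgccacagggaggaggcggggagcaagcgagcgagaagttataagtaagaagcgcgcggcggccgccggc
Klf9: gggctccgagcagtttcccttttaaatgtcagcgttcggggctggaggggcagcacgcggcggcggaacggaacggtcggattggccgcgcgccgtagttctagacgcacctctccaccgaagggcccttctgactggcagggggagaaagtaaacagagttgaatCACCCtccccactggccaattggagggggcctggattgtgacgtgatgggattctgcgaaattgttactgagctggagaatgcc
Klf13: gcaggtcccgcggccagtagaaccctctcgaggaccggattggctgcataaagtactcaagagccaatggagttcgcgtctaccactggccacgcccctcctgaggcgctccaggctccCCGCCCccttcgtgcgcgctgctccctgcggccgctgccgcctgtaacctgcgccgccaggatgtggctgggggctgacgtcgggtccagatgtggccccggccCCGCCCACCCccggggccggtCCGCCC
Klf6: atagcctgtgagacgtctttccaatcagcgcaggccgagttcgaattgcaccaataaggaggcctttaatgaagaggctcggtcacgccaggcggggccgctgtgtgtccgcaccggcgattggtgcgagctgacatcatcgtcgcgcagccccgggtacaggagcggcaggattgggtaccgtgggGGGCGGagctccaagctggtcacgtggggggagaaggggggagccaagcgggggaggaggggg
Klf15: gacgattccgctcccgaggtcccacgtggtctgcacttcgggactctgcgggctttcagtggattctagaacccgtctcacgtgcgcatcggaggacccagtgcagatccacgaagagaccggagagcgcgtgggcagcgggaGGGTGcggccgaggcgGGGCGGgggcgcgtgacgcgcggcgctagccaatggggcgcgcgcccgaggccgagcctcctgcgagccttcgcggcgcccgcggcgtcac
In these windows GGGCGG occurred 4 times for Klf4, 3 times for Klf13, and 1 time each for Klf6 and Klf15, and was not found for Klf9. CACCC occurred 1 time each for Klf9, Klf13 and Klf15 and was not found for Klf4 and Klf6. Of all 10 members 8 had a promoter in the table; Klf5 and Klf10 had none. GGGCGG was present in 7 of the 8, against 32.7% of all 32851 windows of the same length, and CACCC in 6 of the 8, against 52%. All 8 windows were richer in G and C than the median window, at 59.2% to 78.4% against 52.4%. These are counts of letters; no binding was measured.

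Expression was measured as log2 values made by RMA (robust multi-array averaging), and every difference below is Klf5-deleted minus control on that scale, where a negative value means less RNA after deletion of Klf5. A gene was called where limma's adjusted p was under 0.05 over all 19938 genes. By that rule 1.98% of all genes were called, 1.59% lower and 0.386% higher. Among the 10 members 1 fell, Klf5 itself, none rose, and 9 did not pass. At an unadjusted p under 0.05 by limma, 5 members were lower, Klf5 among them, and none higher. At that unadjusted p 8.08% of all genes were lower and 6.34% higher. The median difference of the 10 was -0.195, or -0.166 for the 9 paralogs alone, beside -0.00993 over all genes. The mean over the 10 members, Klf5 included, lay between 9.40 and 9.43 on the 3 Klf5-deleted arrays. It lay between 9.61 and 9.68 on the 3 control arrays. Array features of different genes are not on a common scale, so levels are compared below within a gene only.

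**Figure D1:**
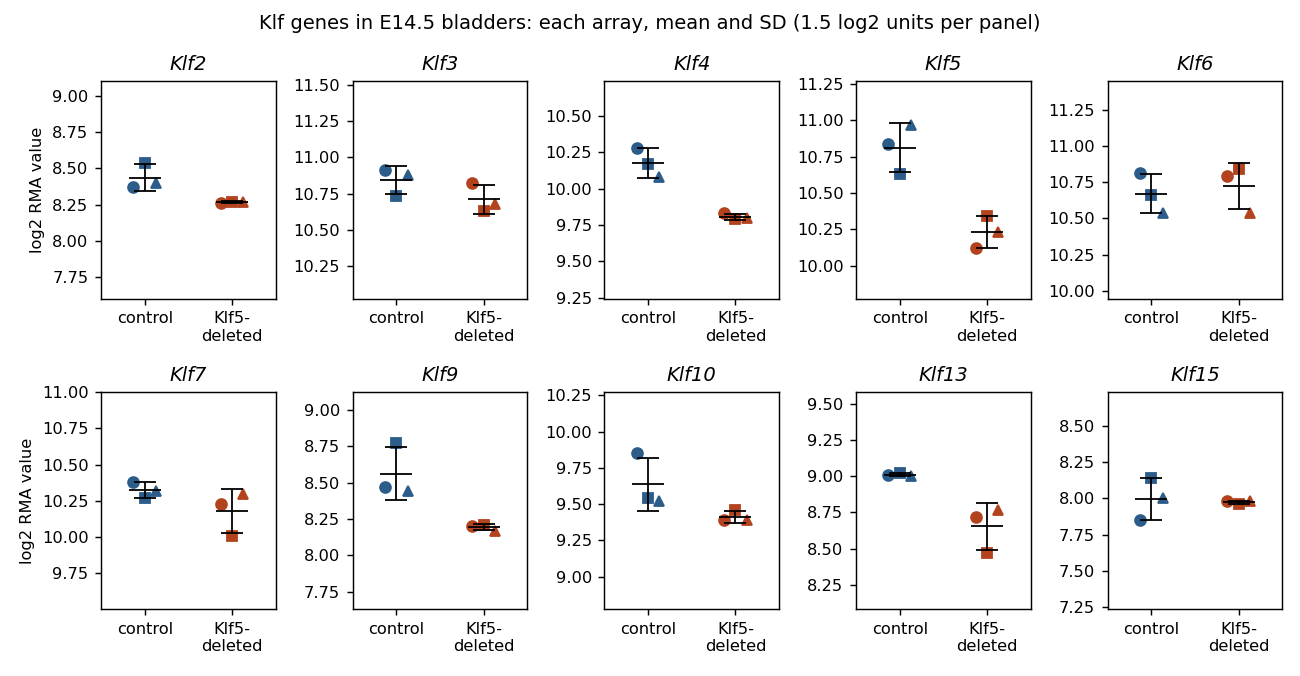
Log2 RMA value (vertical axis, 1.5 log2 units in every panel) of Klf5 and its 9 paralogs on each control (blue) and Klf5-deleted (red) array; circles, squares and triangles are pools 1, 2 and 3 of a genotype, which are not paired, and bars give the mean and SD of 3 arrays. The groups are apart for Klf2, Klf4, Klf5, Klf9, Klf10 and Klf13, with the red points below, and overlap for Klf3, Klf6, Klf7 and Klf15.

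Klf5, the deleted gene, read 10.84, 10.63 and 10.97 on the control arrays and 10.12, 10.34 and 10.23 on the Klf5-deleted arrays. All Klf5-deleted arrays were lower than all controls. The difference was -0.59 (SE 0.10, 95% confidence interval -0.83 to -0.34, adjusted p = 0.0381 by limma), which leaves 66.6% of the control signal, with bounds of 56.3% and 78.8%. A signal of that size was left in whole bladders in which other cells were taken to keep the gene, and the exons that the feature on the array reads were not looked up. The call rested on the full set of arrays: without control 2 the adjusted p was 0.0167 by limma, and without any other single array it was 0.0847 to 0.156, with differences of -0.68 to -0.51 over the 6 fits. It was also lost with each array centred on the median of all genes (-0.55, adjusted p = 0.061 by limma), with all 35557 features tested (adjusted p = 0.102 by limma) and with the replicate number as a block.

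Among the other activators, Klf4, like Klf5 a factor of epithelia and known for its role in their differentiation, was lower on every Klf5-deleted array and missed the threshold narrowly. Klf4 read 10.28, 10.17 and 10.08 in controls and 9.83, 9.79 and 9.80 in Klf5-deleted bladders. The Klf5-deleted arrays lay within 0.04 of each other and all below the controls. The difference was -0.37 (SE 0.07, 95% confidence interval -0.53 to -0.20, adjusted p = 0.0539 by limma), or 77.6% of the control signal. Over the 15 alternative settings it ran from -0.41 to -0.31, with an adjusted p of 0.0465 to 0.168 by limma, and passed in 3 of them: with a robust prior on the spread, with arrays centred on housekeeping genes and with dim genes left out.

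Beside Klf4, the markers of urothelium were also lower. Of 14 urothelial markers, 8 fell, none rose and all 14 had a negative difference, with a median of -1.48. Their mean level was 9.31 to 9.60 on Klf5-deleted and 10.66 to 10.92 on control arrays. The uroplakin gene Upk2 fell by 3.19 and the keratin gene Krt8 fell by 1.77. Trp63, a factor of basal cells, and Krt5, a basal keratin, differed by -0.24 and -0.10 and did not pass. Nor did Foxa1 (-0.89), Shh (-0.52), Epcam (-0.39) and Gata3 (-0.13). No contrast between basal and other markers was tested. Krt5 read 9.85, 11.37 and 10.44 in controls and 10.49, 10.49 and 10.38 in Klf5-deleted bladders. Its negative sign rested on control 2. The part of the urothelial markers in the values of Klf4 and Klf5 was not tested.

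Klf2, best known from endothelium, where blood flow induces it, read 8.37, 8.54 and 8.40 in controls and 8.26, 8.27 and 8.27 in Klf5-deleted bladders. The groups did not overlap, and control 2 was the highest array. The difference was -0.17 (SE 0.07, 95% confidence interval -0.33 to -0.01, adjusted p = 0.326 by limma), or -0.11 without control 2. Of 10 endothelial markers none passed and 9 were lower, with a median of -0.11. Their mean level was 10.56 to 10.84 on Klf5-deleted and 10.75 to 10.88 on control arrays. The part of endothelial RNA in the value of Klf2 was not tested. Of 3 known targets of Klf2 in endothelium none passed: Thbd, the thrombin receptor thrombomodulin, differed by 0.63 (SE 0.13, adjusted p = 0.0642 by limma), the nitric oxide synthase gene Nos3 by -0.12 and the sphingosine phosphate receptor gene S1pr1 by -0.13. Thbd thus had a sign opposite to that of Klf2. Its groups did not overlap, as on the higher side for 8.67% of all genes. It passed without control 2 (0.74, adjusted p = 0.0313 by limma) and with a robust prior (adjusted p = 0.0398 by limma). It also passed with centring on the median of all genes (adjusted p = 0.039 by limma) and with array weights (0.0451). Which cells of the whole bladders held Thbd RNA was not tested.

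Klf6, a widely expressed factor induced by injury and growth signals, was the single member with a positive difference. It read 10.81, 10.66 and 10.54 in controls and 10.79, 10.84 and 10.54 in Klf5-deleted bladders, so the groups overlapped over nearly their whole range. The difference was 0.05 (SE 0.11, 95% confidence interval -0.19 to 0.30, adjusted p = 0.876 by limma). The upper bound of the interval is a rise of 1.23-fold, the highest upper bound among the 9 paralogs. With 1 array left out the difference ran from -0.01 without control 3 to 0.15 without Klf5-deleted 3.

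Klf7, a factor known from neurons and fat cells, also had overlapping groups. It read 10.38, 10.27 and 10.32 in controls and 10.23, 10.01 and 10.30 in Klf5-deleted bladders. Klf5-deleted 2 was the lowest array, and Klf5-deleted 3 lay inside the range of the controls. The difference was -0.14 (SE 0.09, adjusted p = 0.537 by limma), with an upper bound of 1.05-fold, and was -0.06 without Klf5-deleted 2.

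Klf3, the member that recruits CtBP and often opposes activating members at the same sites, read 10.91, 10.73 and 10.88 in controls and 10.82, 10.63 and 10.68 in Klf5-deleted bladders. The groups overlapped through control 2 and Klf5-deleted 1. The difference was -0.13 (SE 0.08, 95% confidence interval -0.32 to 0.06, adjusted p = 0.54 by limma). The upper bound was a rise of 1.04-fold.

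All 3 members that recruit Sin3 were lower on every Klf5-deleted array than on any control, as were 11.8% of all genes. None of the 3 passed the threshold. They were taken from the members alone, so nothing follows for factors that recruit Sin3 as a class. Klf9, which responds to glucocorticoid and thyroid hormone, read 8.47, 8.77 and 8.44 in controls and 8.20, 8.21 and 8.17 in Klf5-deleted bladders. Control 2 stood above the other controls, while the Klf5-deleted arrays were within 0.04 of each other. The difference was -0.37 (SE 0.10, 95% confidence interval -0.59 to -0.15, adjusted p = 0.126 by limma), and -0.27 without control 2 (adjusted p = 0.173 by limma).

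Klf10, which TGF-beta induces, read 9.85, 9.54 and 9.52 in controls and 9.39, 9.46 and 9.39 in Klf5-deleted bladders. The groups were apart by a small margin, and control 1 was the highest. The difference was -0.22 (SE 0.10, 95% confidence interval -0.45 to 0.01, adjusted p = 0.358 by limma), and -0.12 without control 1.

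Klf13, a regulator known from heart and lymphocytes, read 9.01, 9.02 and 9.0 in controls and 8.72, 8.47 and 8.77 in Klf5-deleted bladders. Here the controls were nearly equal and the Klf5-deleted arrays spread over 0.30. The difference was -0.35 (SE 0.09, 95% confidence interval -0.56 to -0.15, adjusted p = 0.113 by limma), which leaves 78.3% of the control signal. Over the 15 alternative settings its adjusted p by limma was 0.0955 to 0.275, and the difference -0.41 to -0.26.

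Klf15, a metabolic regulator of muscle, liver and fat, was the member whose value differed least. It read 7.85, 8.14 and 8.0 in controls and 7.98, 7.96 and 7.98 in Klf5-deleted bladders, all of the latter inside the range of the controls. The difference was -0.02 (SE 0.08, 95% confidence interval -0.22 to 0.17, adjusted p = 0.941 by limma), with a bound of 1.13-fold on the side of a rise. It was -0.10 without control 1, and its sign turned to 0.05 without control 2 and to 0.02 with each array centred on the median of all genes. Of 4 genes that Klf15 controls in metabolic tissues none passed, and all were lower: Slc2a4, which codes for a glucose transporter, differed by -0.32, the proline dehydrogenase gene Prodh by -0.21, Pck1, which codes for an enzyme of glucose synthesis, by -0.20 and the amino acid transaminase gene Bcat2 by -0.11.

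Groups were apart with the Klf5-deleted arrays below for 6 of the 10 members, the deleted Klf5 among them, where 11.8% of all genes showed this. They were apart with the Klf5-deleted arrays above for no member, where 8.67% of all genes showed that. Of the 9 paralogs 8 had a negative difference, beside 53.5% of all genes. The 95% confidence intervals of Klf2, Klf4, Klf9 and Klf13 lay below 0, before any adjustment for the number of genes, and those of the other 5 paralogs included 0. No paralog rose past the threshold in any of the 15 alternative settings, where the difference of Klf6 reached 0.15 without Klf5-deleted 3. The highest upper bound among the paralogs was the 1.23-fold of Klf6, a bound for the main fit alone. These bounds hold for whole bladders; a rise within the epithelium alone would be diluted by the other tissues and was not measured.

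**Figure D2:**
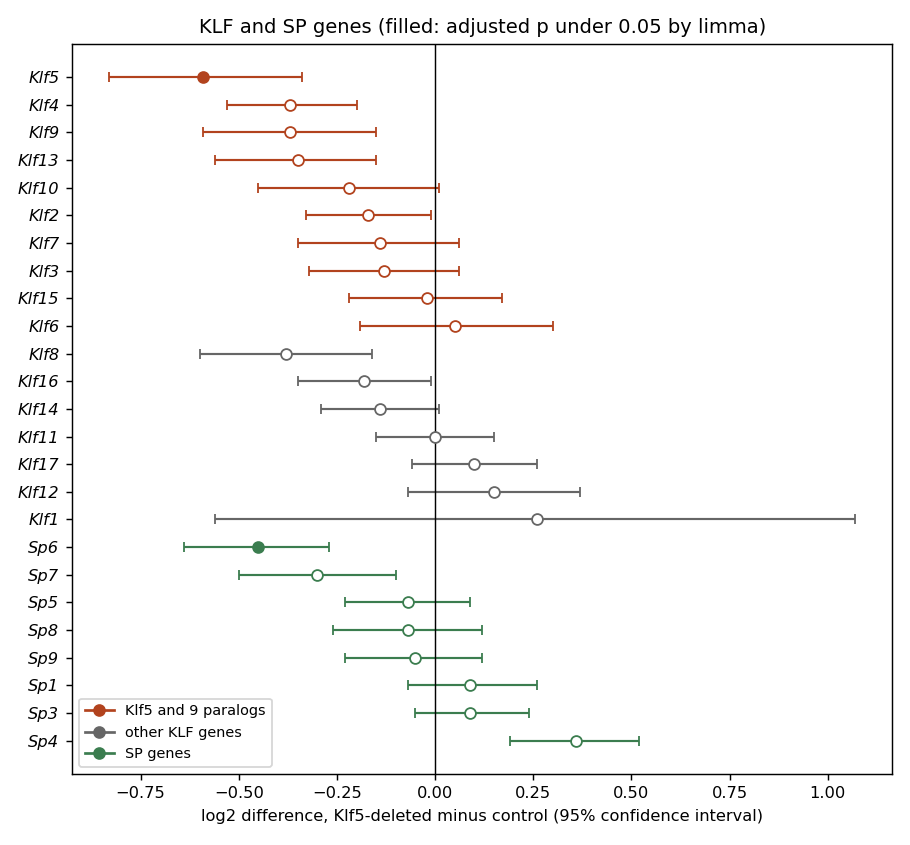
Log2 difference, Klf5-deleted minus control, with limma's 95% confidence interval (horizontal axis) for Klf5 and its 9 paralogs (red), 7 other KLF genes (grey) and 8 SP genes (green); filled points passed an adjusted p of 0.05. Only Klf5 and Sp6 are filled, both on the lower side, and Sp4 and Klf1 lie farthest to the right among SP and other KLF genes.

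The distance between each paralog and Klf5 on the same array was also compared, since a change common to an array cancels in it. The log2 value of the paralog minus that of Klf5 was higher in Klf5-deleted bladders for all 9 paralogs, by 0.22 for Klf4 to 0.64 for Klf6. Each change is the paralog's difference less the -0.59 of Klf5. Any gene that fell by less than Klf5, or did not change, is therefore higher by this measure. The sign alone does not show a rise of a paralog. The groups were apart for 6 of the 9 pairs: Klf2 (0.42), Klf3 (0.46), Klf6 (0.64), Klf7 (0.44), Klf10 (0.36) and Klf15 (0.56). For these 6 the two-sided exact permutation p was 0.1, the smallest that 3 arrays against 3 can give, and 0.15 after Benjamini-Hochberg adjustment over the 9 pairs. For Klf4, Klf9 (0.22) and Klf13 (0.23) the groups overlapped, with exact permutation p of 0.2, 0.4 and 0.3. By this exact test 3 arrays against 3 cannot reach 0.05; no other test of the distances was run. The overlaps changed when single arrays were left out. With fewer arrays groups can be apart more readily, so no conclusion about a particular array follows. Without control 2 the groups were apart for Klf4 and Klf9 too, with a distance of 0.41 for Klf9, and without Klf5-deleted 2 they were apart for Klf4 and Klf13 too, with 0.38 for Klf13. Without control 3 the distances were smaller, at 0.09 for Klf4, 0.08 for Klf9, 0.15 for Klf13 and 0.22 for Klf10, and without Klf5-deleted 1 that of Klf13 was 0.14. All 9 distances hold the same Klf5 values and are not independent. The share of all genes whose distance from Klf5 was apart between groups was not computed. The count of 6 pairs is therefore no result about the paralogs.

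**Figure D3:**
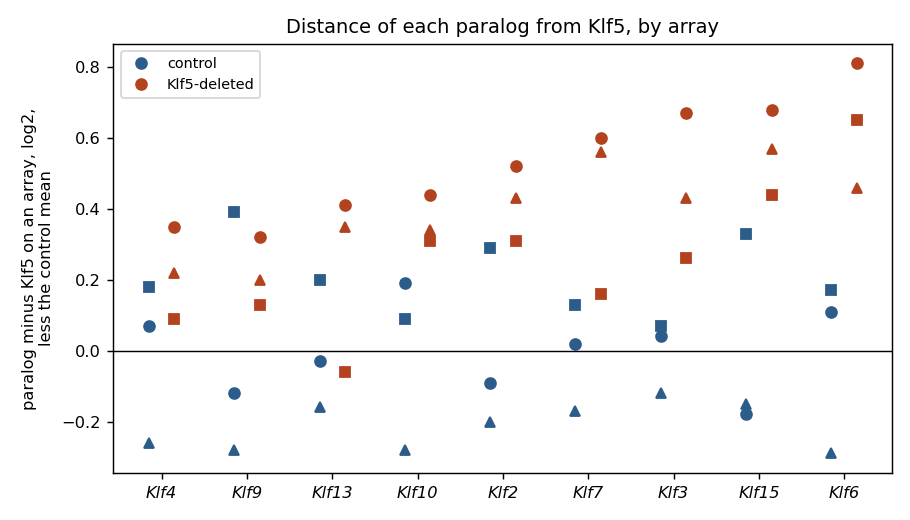
Log2 value of each paralog minus that of Klf5 on the same array, less the mean of the 3 controls (vertical axis), for control (blue) and Klf5-deleted (red) arrays; circles, squares and triangles are pools 1, 2 and 3 of a genotype. The red points are above all blue points for Klf10, Klf2, Klf7, Klf3, Klf15 and Klf6, and overlap with them for Klf4, Klf9 and Klf13.

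The rest of the family gave 1 more call, the SP gene Sp6. SP factors share the zinc-finger type of the KLF proteins and bind GC boxes. Sp6, known from teeth and skin, read 7.42, 7.27 and 7.37 in controls and 6.97, 6.95 and 6.78 in Klf5-deleted bladders. It fell by 0.45 (SE 0.08, adjusted p = 0.035 by limma), but without any single array other than control 2 the adjusted p was 0.0888 to 0.131, and with each array centred on the median of all genes it was 0.0618. Sp4, known from neurons, went the other way, from 8.67, 8.68 and 8.61 to 9.11, 8.96 and 8.95. Its difference of 0.36 (SE 0.07, adjusted p = 0.0545 by limma) did not pass, although the groups were apart; it passed with each array centred on the median of all genes (0.40, adjusted p = 0.0378 by limma), with dim genes left out and with array weights. Of 8 measured SP genes 1 fell, none rose and 7 did not pass, with Sp7, a factor of bone, at -0.30 and the ubiquitous Sp1 and Sp3 at 0.09 each.

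None of the other 7 KLF genes passed, and their median difference was 0.00. Klf8, which recruits CtBP like Klf3, had the largest difference on the lower side, -0.38 (SE 0.09, adjusted p = 0.11 by limma), with 8.35, 8.20 and 8.10 in controls against 7.71, 7.96 and 7.84. Klf16 and Klf14 differed by -0.18 and -0.14. Groups were apart on the lower side for 3 of the 7, Klf8, Klf14 and Klf16, beside 11.8% of all genes. Klf11, Klf12 and Klf17 differed by 0.00, 0.15 and 0.10, with overlapping groups. Klf1, the factor of red blood cells, was spread widely within the controls, at 7.57, 8.99 and 7.89, and its difference was 0.26 (SE 0.35, adjusted p = 0.808 by limma). The mean of 5 measured erythroid markers on the same controls was 10.70, 12.35 and 11.71, the same order as Klf1. In Klf5-deleted bladders this mean was 12.0, 11.49 and 12.14 and Klf1 read 8.61, 8.05 and 8.56, which is not the same order. None of the 5 markers passed the threshold. The part of blood in the value of Klf1 was not tested.

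Proteins that KLF factors need or that remove Klf5 held no gene past the threshold. Of 10 cofactor genes, for CtBP, Sin3, histone deacetylases and acetyltransferases, differences ran from -0.04 to 0.15, with Crebbp and Hdac2 at 0.15 and 0.14. Hdac1 differed by -0.04. Of 5 genes for the turnover of Klf5 and the YAP proteins that protect it, the ubiquitin ligase genes Wwp1 and Fbxw7 differed by 0.01 and 0.05, and Yap1 by 0.11 (SE 0.06, adjusted p = 0.452 by limma).

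Genes described elsewhere as targets of Klf5 were measured for 7 of 8 listed, and 1 of them fell. Pparg, the nuclear receptor of fat cells and urothelium, read 10.27, 9.86 and 10.04 in controls and 8.09, 8.64 and 8.10 in Klf5-deleted bladders. The difference was -1.78 (SE 0.17, adjusted p = 0.0037 by limma), larger in size than that of any KLF or SP gene measured. Tagln, a contractile gene of smooth muscle, and the growth factor gene Pdgfa differed by -0.47 and -0.36 and did not pass. Of 8 smooth muscle markers 1 fell, none rose and all were lower, with a mean level of 12.28 to 12.47 in Klf5-deleted and 12.50 to 12.75 in control bladders; the part of muscle in the value of Tagln was not tested. Pparg was on this list after its change in these samples had been seen, so it is no independent support.

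The pathways that induce single members were compared beside them. Among 15 immediate early genes, a class to which Klf4, Klf6 and Klf10 belong in many cells, none passed and the median was -0.20. Of the 15, 13 were lower, beside 53.5% of all genes, and the groups were apart on the lower side for 4, beside 11.8% of all genes. Nr4a1, a nuclear receptor, differed by -0.45 (SE 0.12, adjusted p = 0.126 by limma), Zfp36, a regulator of mRNA decay, by -0.34 and the antiproliferative gene Btg2 by -0.26. Without control 3 Nr4a1 passed, with a difference of -0.58 and an adjusted p of 0.0303 by limma.

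Glucocorticoid and clock genes, which act with Klf9 and Klf15 in other tissues, held no gene past the threshold either. Of 6 measured glucocorticoid genes 3 were lower, as Klf9 was, and 3 higher. Tsc22d3 and Fkbp5 differed by 0.34 and 0.12 and Zbtb16 by -0.16. Of 7 clock genes 3 had a higher and 4 a lower value, and the median was -0.01; the repressor gene Nr1d1 differed by -0.22, Per2 by -0.15 and Arntl by -0.13. In the TGF-beta list of 6 measured genes the ligand gene Tgfb1 differed by -0.27 (SE 0.08, adjusted p = 0.151 by limma), Skil, an inhibitor of the pathway, by 0.17 and the receptor gene Tgfbr1 by 0.15.

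**Figure D4:**
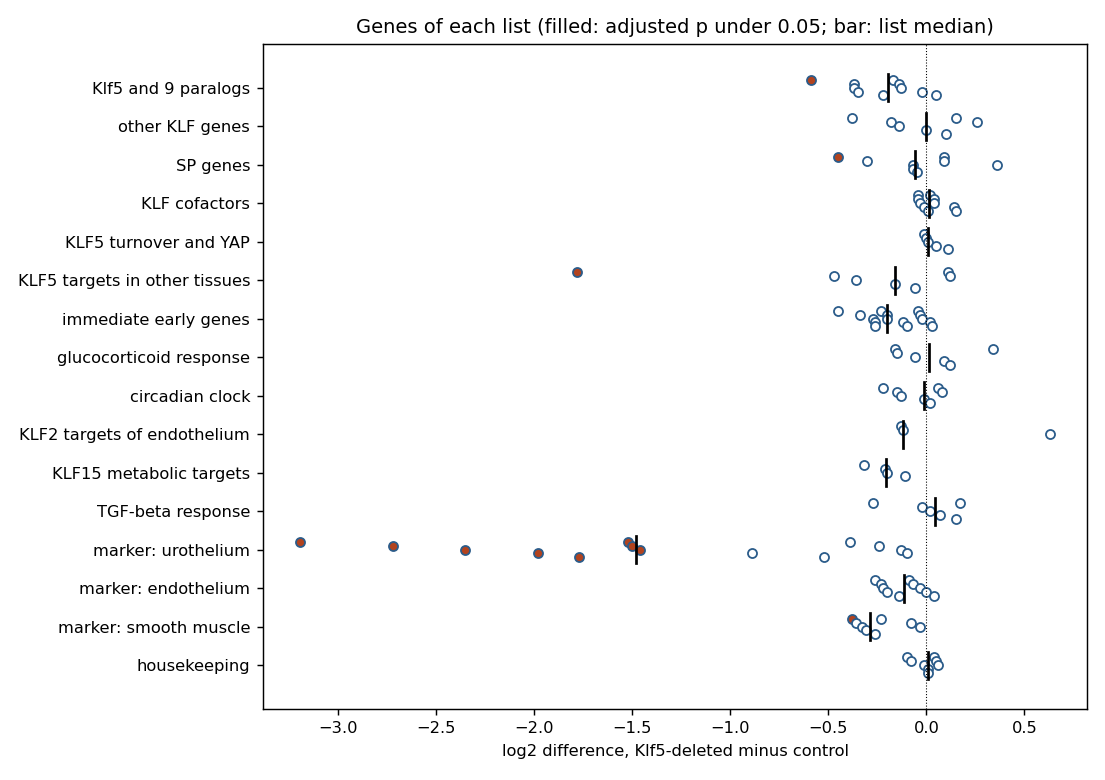
Log2 difference, Klf5-deleted minus control (horizontal axis), of each measured gene in the lists of the family, its cofactors and its pathways and in 4 reference lists; filled points passed an adjusted p of 0.05, and the black bar is the list median. The members' bar stands at -0.195 and the bar of the urothelial markers at -1.48, while cofactor, turnover and housekeeping genes lie close to 0.

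The genes whose profile over the 6 arrays was most like that of Klf5 came from outside the KLF and SP families. Likeness was the root mean square difference between profiles after each gene's mean was taken out, and it uses the genotype difference itself, so these genes are a description. The nearest were Crybg2 (0.059), a gene of the crystallin domain type, and Grb7 (0.059), an adaptor of receptor tyrosine kinases. They were followed by Cdcp1 (0.062), a surface protein of epithelial cells, Acpp (0.063), which codes for prostatic acid phosphatase, the claudin gene Cldn23 (0.069) and the tetraspanin gene Tspan13 (0.07). Their differences were -0.56, -0.59, -0.54, -0.52, -0.68 and -0.68 in that order. Grb7 read 9.0, 8.91 and 9.10 in controls and 8.32, 8.47 and 8.47 in Klf5-deleted bladders, lowest among controls on control 2, as Klf5 was. Among the paralogs Klf4 was nearest to Klf5, at 0.187 and rank 353 of 19937 genes, followed by Klf13 at rank 677; Klf6 was farthest, at 0.366 and rank 14761.

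The arrays of a genotype were alike, with Pearson's r across genes of 0.994 to 0.996 among Klf5-deleted and 0.987 to 0.996 among control arrays, and no array repeated another. Control 2 stood apart: the mean of 3 measured placental transcripts was 12.56 there, 8.94 on Klf5-deleted 2 and 5.39 to 7.02 on the remaining arrays. Klf2, Klf9, Klf13 and Klf15 each had their highest value on control 2, and Klf3, Klf5 and Klf7 their lowest among controls. Without control 2 the median difference of the 10 members was -0.225. Klf4, Klf6 and Klf13 then differed by -0.37, 0.05 and -0.35, as with all arrays, and Klf3, Klf7 and Klf10 by -0.18, -0.17 and -0.27. The part of placental RNA in these values was not tested. Of 9 striated muscle markers none passed and all were higher in Klf5-deleted bladders, with a median of 0.76, and of 8 measured housekeeping genes none passed, with a median of 0.01.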

How the data were processed

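Each of 6 pools of embryonic bladders was measured on an Affymetrix Mouse Gene 1.0 ST array. The authors made the deposited log2 values with RMA (background correction, quantile normalization and a summary of each feature's probes), per the submitters' processing notes. The log2 scale was inferred from the range of 3.24 to 14.6 and array medians of 7.68 to 7.80. For RMA's version, the genome build and the probe annotation, the entry is: not given in the sources used here. Scanner files were not used, so no feature could be called above background, and RMA compresses differences between dim values. The number of arrays limits precision.

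Of 35557 features, 21789 had 1 gene symbol, 1621 several and 12147 none; for each gene the feature with the highest mean was tested, which left 19938 genes. Genotypes were compared with limma 3.58.1 in R 4.3.3 (lmFit, eBayes, two-sided), with Benjamini-Hochberg adjustment over all genes tested and a threshold of 0.05. The procedure was tested on simulated data. Confidence intervals are limma's at 95%. Named were all members and genes past the threshold or with the 3 smallest p-values in each list. Markers beside a result and the 6 profiles nearest to Klf5 were named too. Bcat2, Sp1, Sp3, Klf1, Klf11, Klf12 and Klf17 were chosen after their values were seen. So were the markers Upk2, Krt8, Trp63, Krt5, Foxa1, Shh, Epcam and Gata3. Members and lists were chosen with earlier results of these data known. Listed genes without a feature of their own symbol were not analysed here. Alternatives changed the prior, scaling, dim-gene filter (lowest 25% by mean), features, weights and arrays.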

Additional observations from a re-analysis of the deposited data

How the results depend on the processing

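Klf5 kept its negative sign in all 15 alternative settings, and its difference was -0.68 to -0.51 over the 6 fits that left out 1 array; the call was lost in 5 of these, in all but the one without control 2. With the replicate block it was -0.59 (adjusted p = 0.137 by limma), with arrays centred on the median of all genes -0.55 (0.061) and with every feature tested -0.59 (0.102). The members past the threshold numbered 0 in those 3 settings, 2 (Klf4 and Klf5) with a robust prior with trend, with centring on housekeeping genes and with dim genes left out, and 0 to 1 with an array left out. The genes past the threshold, 395 over all arrays, numbered 110 with the replicate block, 218 with every feature tested and 141 to 349 with an array left out. Deviations of same-numbered samples correlated across genes at 0.00915, 0.0313 and 0.0787, so the numbers were not treated as pairs. Signs turned for 3 values near 0: Klf15 was 0.02 with centring on the median of all genes and -0.10 to 0.05 with an array left out; Klf6 was -0.01 to 0.15 with an array left out; Wwp1 was -0.01 with array weights and -0.05 to 0.07 with an array left out. The cause of these changes was not tested. Every feature tested means a larger adjustment, and an array left out means fewer samples. The distance between paralog and Klf5 was apart between groups for 6 to 8 of 9 pairs, a count to which the fall of Klf5 itself contributes. The counts of 8 came from fits with an array left out, where groups can be apart more readily. The share over all genes was not computed, so the count is no result about the paralogs. Among the other values, 42 were no longer past the threshold in a setting, 12 newly were, and 722 kept their side and direction. The 722 include the distances between paralog and Klf5, for which the direction alone was compared.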
